A study of Mus musculus with 38 samples.

Results

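The 4 beta-globin genes Hbb-y, Hbb-bh1, Hbb-b1 and Hbb-b2 were taken by name from the GENCODE vM1 annotation, which holds 22380 protein-coding genes on the mouse build NCBI37/mm9. They lie in this order, read in the direction of transcription, on the minus strand of chromosome 7, between 110961038 and 111001754, a span of 40.7 kb. Peaks were read across this span and 200 kb on either side, a window of 441 kb. The flanks hold 29 of the 1251 annotated olfactory receptor genes.

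Beta-globin genes encode the beta-like chains of haemoglobin and are transcribed in erythroid cells, with Hbb-y and Hbb-bh1 used in the embryo and Hbb-b1 and Hbb-b2 after it. A locus control region upstream of Hbb-y drives them, and the cluster is embedded in olfactory receptor genes, which are transcribed in sensory neurons of the nose. SATB1 is a nuclear protein that binds base-unpairing regions (BURs), AT-rich DNA in which one strand lacks G or lacks C over some length and which unpairs readily under torsional stress. CTCF is a zinc-finger protein that binds a defined motif and is found at insulators and domain borders. None of the samples is labelled as erythroid, and peak lists carry no measure of transcription.

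The series compared SATB1 binding between tissues and between 2 ways of preparing crosslinked chromatin. In urea ChIP-seq, chromatin is spun through concentrated urea so that only proteins crosslinked directly to DNA are kept, and in standard ChIP-seq the soluble part of sonicated nuclei is used. Peak lists of 11 of the 38 samples were analysed: the BUR reference map, made from thymus DNA bound by SATB1 in vitro, SATB1 urea ChIP-seq of brain, thymocytes and skin in 2 replicates each, SATB1 standard ChIP-seq of thymocytes in 2 replicates, and CTCF urea ChIP-seq of thymocytes and skin in 1 list each. All mice were C57BL/6 in the labels (C57BL/6J in the study's methods) with wild-type Satb1. The labels give ages of 5 and 6 weeks for the brain replicates and postnatal day 13 for the thymus and skin samples, while the titles of the thymocyte CTCF sample and of standard replicate 1 say 6 weeks, and the protocols and the study's methods give other ages for brain and skin. The brain cells came from cortex and the skin cells are keratinocytes in the study's methods; no list allows a check of cell type. The replicates share an experiment number within each tissue under urea and differ in cycles (10 and 12, brain), antibody volume (4 and 2 µl, thymocytes) or sonication (55 and 60 s, skin), so the spread between them may be technical. Replicate numbers are those of the sample labels; in the study's own tables, numbers 1 and 2 of the urea thymocyte pair are exchanged. Standard replicate 1 used antibody ab109122 and 15 s of sonication, and replicate 2 used antibody 1583D, the home-made antibody of the urea lists, and 150 s. The lists held 238380 BURs, 109154 to 117963 brain peaks, 38882 to 45049 thymocyte peaks, 10846 to 11210 skin peaks, 27147 to 48175 standard peaks, and 20323 and 31509 CTCF peaks. They give no read counts, and the study's text describes the aligned totals of its urea libraries as alike across tissues, which was not checked here.

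In the window, urea SATB1 peaks formed 45 separate sites, of which 3 were in all 6 libraries, and none lay in a beta-globin gene. The sequences at 4 of these sites are shown because the results turn on them: of the sites upstream of Hbb-y with peaks in 5 libraries, the one of higher fold in brain, the only site inside the gene span, and the 2 sites of highest thymocyte enrichment among those in all 6 libraries. Each is 150 bases of the plus strand of NCBI37/mm9 around the summit of the peak in brain replicate 1. Capitals mark the longest stretch without G or without C.
18.7 kb upstream of Hbb-y, chr7:111020356-111020505: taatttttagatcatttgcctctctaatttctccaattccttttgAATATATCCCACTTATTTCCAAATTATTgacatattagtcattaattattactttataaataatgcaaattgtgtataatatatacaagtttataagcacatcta
Between Hbb-bh1 and Hbb-y, chr7:110994105-110994254: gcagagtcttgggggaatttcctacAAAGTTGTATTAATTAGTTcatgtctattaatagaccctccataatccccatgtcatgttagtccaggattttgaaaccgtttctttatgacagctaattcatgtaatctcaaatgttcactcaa
Between Olfr69 and Olfr68, chr7:110922082-110922231: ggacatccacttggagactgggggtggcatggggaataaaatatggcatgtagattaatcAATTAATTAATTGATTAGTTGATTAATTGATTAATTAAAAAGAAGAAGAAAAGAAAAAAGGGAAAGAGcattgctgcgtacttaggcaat
Between Olfr624 and Olfr625-ps1, chr7:110822797-110822946: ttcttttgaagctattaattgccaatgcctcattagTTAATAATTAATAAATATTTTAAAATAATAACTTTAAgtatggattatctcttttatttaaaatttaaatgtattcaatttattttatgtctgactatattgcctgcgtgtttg
Their AT contents were 77.3%, 64.0%, 66.0% and 78.7%, and the marked stretches were 28, 19, 68 and 37 bases long. The site inside the gene span had the shortest of these 4 stretches, and the site between Olfr69 and Olfr68 the longest, a stretch rich in A and T followed by a purine run.

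No peak of any of the 11 lists overlapped the body of Hbb-y, Hbb-bh1, Hbb-b1 or Hbb-b2. The background for this is high: of 1401 protein-coding genes of 1000 to 2000 bp, 69.8% also held no peak of any list. The genes are 1473 to 1563 bp long. The absence of peaks has unequal weight in the 4 genes, because the authors kept only uniquely matching reads. All 50-base words in Hbb-y and Hbb-bh1 occur once in the genome, but only 32.8% of those in Hbb-b1 and 28.6% of those in Hbb-b2, which are near-identical copies, do so. Over the whole gene span the share was 80.4%, and over the whole window 83.7%.

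Hbb-y (chr7:111000259-111001754), the embryonic gene nearest to the locus control region, had its nearest BUR 3.06 kb upstream of its start, at chr7:111004810-111005496. This BUR had an in vitro fold enrichment of 14.1, the second highest of the 77 BURs in the window. Fold enrichment is the height of a peak over the local background of the same library, and it is not scaled between libraries. At this BUR the brain libraries gave 11.6 and 8.84, the thymocyte libraries 11.4 and 12.0, skin replicate 1 gave 6.92, and skin replicate 2 had no peak. The brain and thymocyte values overlapped. The peaks began 3.19 to 3.28 kb upstream of the Hbb-y start. In skin replicate 2 the nearest peak was 18.6 kb upstream.

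Further upstream of Hbb-y, 3 more urea SATB1 sites lay before the first olfactory receptor gene, Olfr66. A peak 6.79 kb upstream was present in brain replicate 1 alone, at 4.12-fold. A BUR with an in vitro fold of 10.4, 16.0 kb upstream, held lower peaks in both brain libraries (7.06 and 3.56) and in thymocyte replicate 2 (4.92). The site 18.7 kb upstream, shown above, was strong in brain (16.8 and 19.0) and thymocytes (16.5 and 11.7), and had a peak of 4.91 in skin replicate 2 and none in skin replicate 1. Its BUR had an in vitro fold of 8.68. Each of the BURs at 3.06 and 18.7 kb was bound in 5 of 6 libraries, with a different skin replicate missing.

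Hbb-bh1 (chr7:110990150-110991678), the other embryonic gene, was the member closest to a urea SATB1 peak. The site at chr7:110993933-110994460 lies between Hbb-bh1 and the pseudogene Hbb-bh0, 2.25 kb upstream of the Hbb-bh1 start in brain replicate 2 and 2.27 kb in replicate 1. It reached 17.5 and 15.9 in brain, the fourth highest brain mean in the window (16.7), and 7.65 in thymocyte replicate 1. Thymocyte replicate 2 and both skin replicates had no peak there. Its BUR had an in vitro fold of 6.22. This was the only urea SATB1 site in the gene span.

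Hbb-b1 (chr7:110975048-110976610), the adult gene in the middle of the cluster, was the member with the most distant BUR. That BUR, 8.28 kb upstream, had an in vitro fold of 4.48 and no peak in any other list. The nearest urea SATB1 peak to Hbb-b1 was 17.3 kb away in both brain libraries, 17.4 kb in thymocyte replicate 1, 28.4 kb in thymocyte replicate 2 and skin replicate 1, and 43.7 kb in skin replicate 2. All of these were upstream.

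Hbb-b2 (chr7:110961038-110962510), the adult gene at the other end, had the shortest distance to a BUR of the 4 genes, 0.227 kb past its 3′ end. This BUR (chr7:110960354-110960811) had an in vitro fold of 8.88 and a stretch of 124 bases without G or without C, against a median of 41.0 over the BURs of the window. No SATB1 or CTCF library had a peak on it. Of its 50-base words 83.4% are unique, the lowest share of any BUR in the window. Whether this bears on the missing peaks was not tested. The nearest urea SATB1 peaks to Hbb-b2 were 3.54 and 3.59 kb past its 3′ end in brain (8.74 and 7.81) and 3.70 kb in thymocyte replicate 1 (5.33). In thymocyte replicate 2 and both skin libraries they were 38.6 to 38.7 kb away, at the site between Olfr69 and Olfr68.

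**Figure D1:**
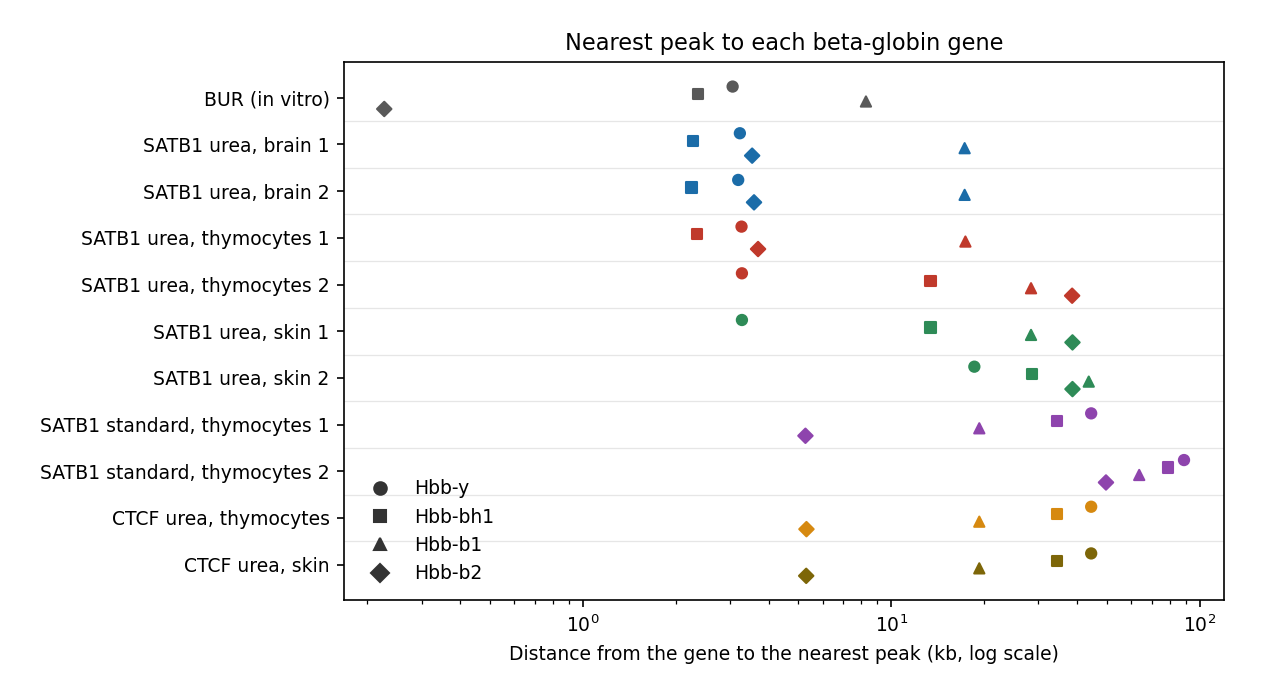
Distance in kb, on a log axis, from the body of each beta-globin gene to the nearest peak of each of the 11 lists; symbols give the gene and colours the experiment. Hbb-y stayed within 3.28 kb of a urea SATB1 peak in 5 of 6 libraries, and Hbb-b1 was at least 17.3 kb from one in all 6.

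Between the site past Hbb-b2 and the site upstream of Hbb-bh1 there was a stretch of 36.4 kb with no urea SATB1 peak in any of the 6 libraries. It was the longest such stretch among the 44 in the window, and contained Hbb-b2, Hbb-b1, Hbb-bh2 and Hbb-bh1 and 2 unbound BURs. Stretches at least as long made up 11.6% of all those in the genome. Within it, 77.8% of 50-base words were unique. For BURs alone, the gap around Hbb-b2 and Hbb-b1 was 24.1 kb, second in the window to a gap of 26.5 kb around Olfr634-ps1, and 10.5% of all gaps between BURs were as long. The share of unique 50-base words was 70.2% in the gap around Hbb-b2 and Hbb-b1 and 70.9% in the longer gap, against 83.7% over the window.

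The gene span contained 2 of the 77 BURs in the window, or 4.91 per 100 kb, and the flanks held 75, or 18.8 per 100 kb. The ratio of these densities was 0.262 (95% Wilson interval 0.0708 to 0.970, covering counting error in the number of BURs only). It depends on cutting the span at the gene ends: BURs lie just outside, 0.227 kb past Hbb-b2 and 3.06 kb upstream of Hbb-y. This border was not varied. The AT content of the span was 60.0%, against 61.7% for the whole window. The window as a whole was rich in BURs: of the 5858 genome tiles of the same length that hold a BUR, 87.6% had fewer. The BURs of the window resembled all BURs in median in vitro fold (5.67 against 5.88), length (446 against 439 bp) and AT content (71.3% against 70.7%).

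**Figure D2:**
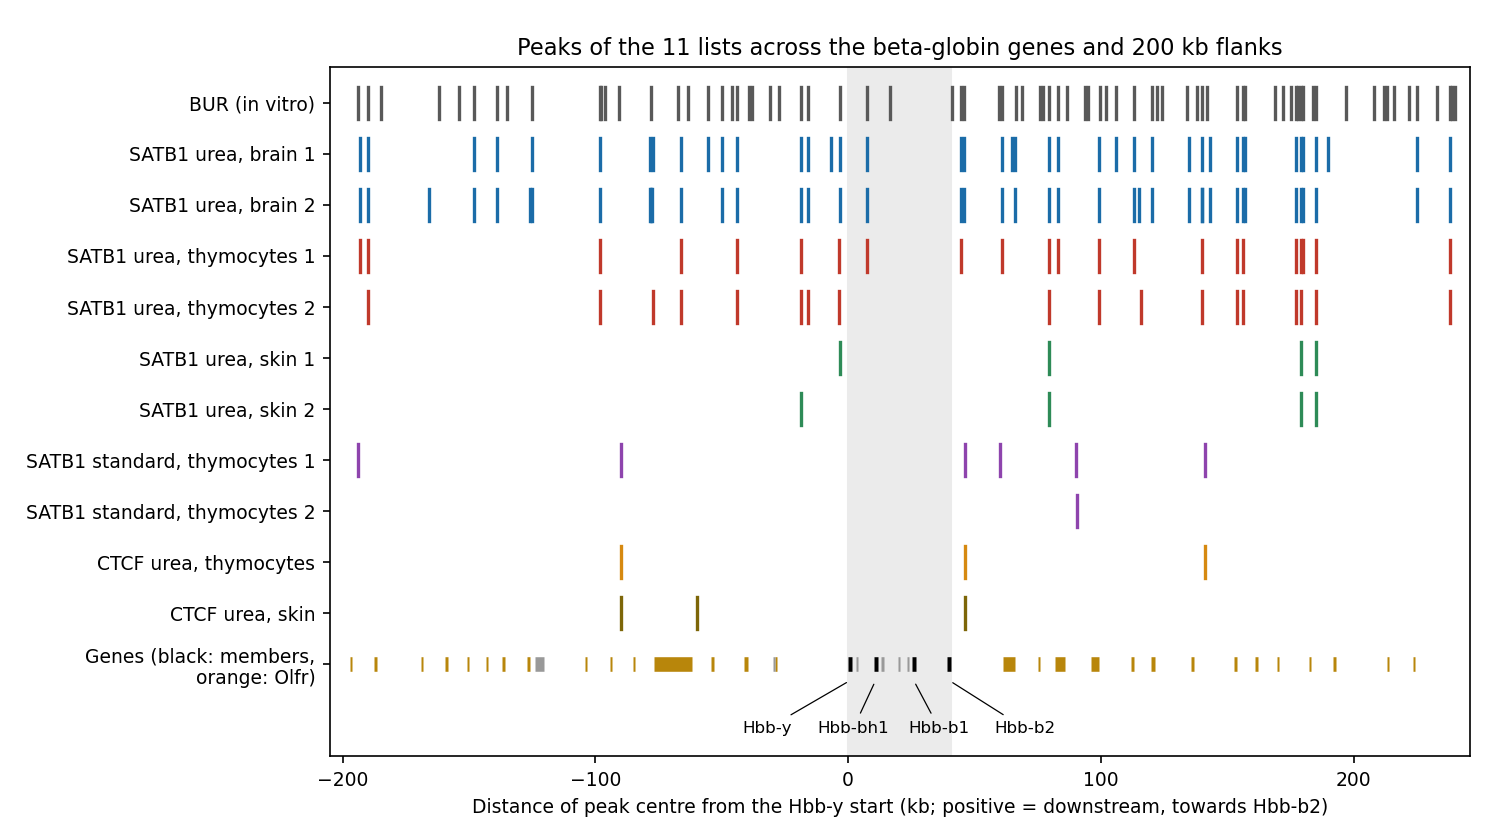
Peak centres of the 11 lists (rows) against distance in kb from the Hbb-y start, with positive values towards Hbb-b2; the grey band is the gene span, and the bottom row shows genes without the long transcript 4930516K23Rik. The span holds 2 BURs, 1 urea SATB1 peak in each brain library and in thymocyte replicate 1, and no CTCF, skin or standard SATB1 peak.

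To ask how SATB1 binding in the window varied with tissue, the share of its 77 BURs overlapped by a urea SATB1 peak was taken in each library. In brain 35 and 33 BURs were bound (45.5% and 42.9%), in thymocytes 20 and 15 (26.0% and 19.5%), and in skin 4 and 4 (5.19% in each). The 3 tissues did not overlap. The means were 44.2% ± 1.84 in brain, 22.7% ± 4.59 in thymocytes and 5.19% ± 0 in skin (SD, n = 2 in each).

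Brain exceeded thymocytes by 21.4 percentage points and thymocytes exceeded skin by 17.5 (exact permutation tests, two-sided, p = 0.333 for each, the smallest that 2 against 2 libraries allow). Over the 3 tissues the means spread over 39.0 points (exact permutation test on the between-group sum of squares over 90 arrangements, p = 0.0667, again the smallest possible). The design can therefore not reach 0.05. With the 6 lists cut to the 10846 peaks of lowest q-value each, the size of the shortest list, the order changed: 3 and 5 BURs were bound in brain, 6 and 7 in thymocytes, and 4 and 4 in skin, and brain was 3.25 points below thymocytes. The excess of brain did not hold with lists of equal length. Neither list length nor the older age that the labels give for the brain mice can be told apart from tissue here.

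Each share was also set against that over all 238380 BURs. Brain libraries bound 36.2% and 33.4% of all BURs, thymocyte libraries 14.3% and 12.6%, and skin libraries 3.68% and 3.61%. The window therefore exceeded the whole map by a ratio of 1.27 ± 0.0212 in brain, 1.68 ± 0.196 in thymocytes and 1.43 ± 0.0198 in skin (SD, n = 2), and in all 6 libraries. All libraries were scored on the same 77 BURs, so these SDs leave out counting error in the BURs. In skin both libraries bound 4 BURs of the window, and the SD comes only from the shares over all BURs. With both replicates required, 33 BURs of the window (42.9%) were bound in brain against 30.6% of all BURs, 14 (18.2%) in thymocytes against 11.1%, and 3 (3.90%) in skin against 3.10%. The skin share is near its background. Thymocyte libraries had 22 and 18 peaks in the window, more than in 97.7% and 97.0% of the tiles, and brain libraries had 41 and 41, more than in 87.8% and 90.4%.

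**Figure D3:**
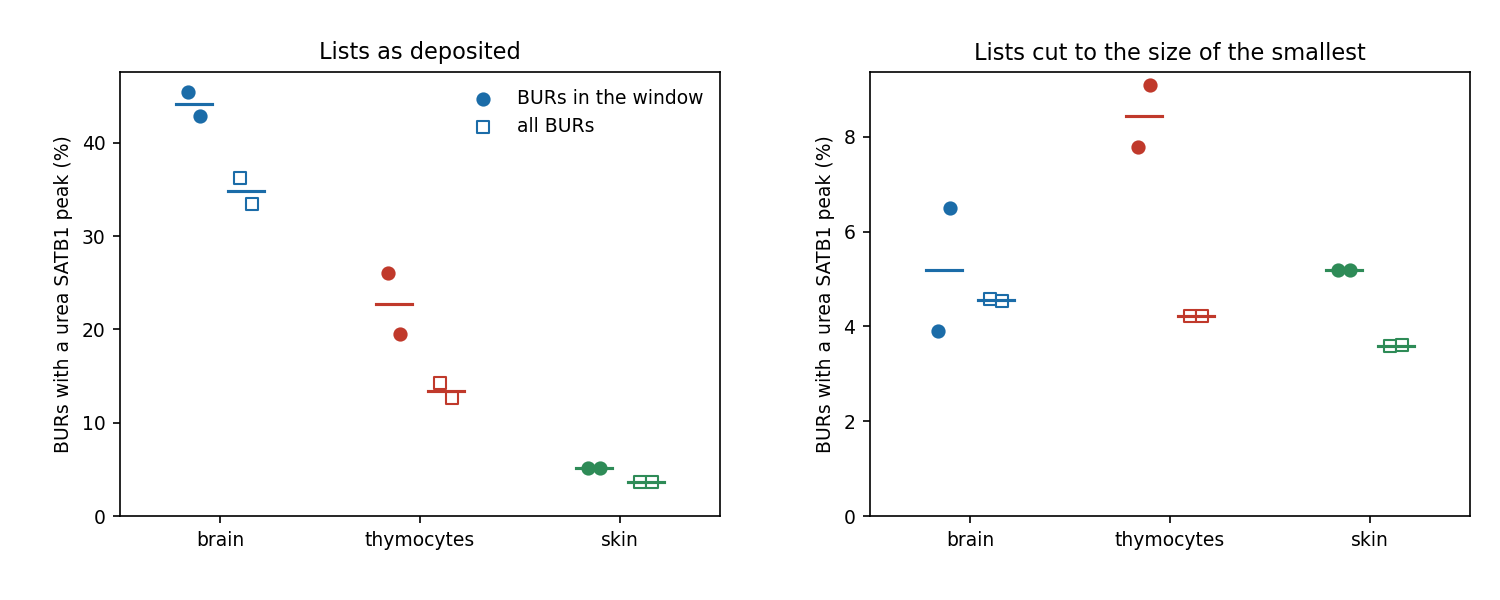
Percent of BURs with a urea SATB1 peak in each library (points) and the mean of 2 libraries (lines), for the 77 BURs of the window (filled) and all BURs (open), with the lists as deposited (left) and cut to 10846 peaks (right). As deposited, brain libraries lay at 42.9% and 45.5% in the window and thymocyte libraries at 19.5% and 26.0%; with lists of 1 size, brain (3.90% and 6.49%) fell below thymocytes (7.79% and 9.09%).

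With the lists as deposited, the bound BURs of the window were nested between tissues, as most bound BURs of the whole map were. All 3 BURs bound in both skin libraries were bound in both thymocyte libraries, and all 14 of those in both brain libraries. Over all BURs the matching shares were 92.5% and 97.4%. In reverse, 42.4% of the brain-bound BURs of the window were shared with thymocytes, and 21.4% of the thymocyte-bound BURs with skin, against 35.2% and 25.9% over all BURs. No BUR of the window was bound in thymocytes or skin and free in both brain libraries, a class that holds 0.584% of all BURs. In both brain libraries but no thymocyte or skin library, 12 BURs (15.6%) were bound, against 15.7% of all BURs. In no urea library were 42 BURs of the window (54.5%) bound, against 60.4% of all. The nesting in brain did not hold with lists cut to 10846 peaks. The sites between Olfr69 and Olfr68 and between Olfr624 and Olfr625-ps1 were then kept in both thymocyte and both skin lists. Neither brain list kept them.

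The 3 sites present in all 6 libraries lay among the olfactory receptor genes past Hbb-b2, and in each of them both thymocyte values exceeded both brain values. The site at chr7:110921898-110922438, between Olfr69 and Olfr68 and 1.79 kb from Olfr69, reached 20.0 and 19.9 in thymocytes, 12.6 and 11.5 in skin, and 9.13 and 10.4 in brain. The site at chr7:110822551-110823155, 3.01 kb from Olfr624, reached 17.7 and 21.4 in thymocytes, 17.0 and 16.6 in skin, and 8.82 and 9.01 in brain. The site at chr7:110816790-110817315, 1.30 kb from the other end of Olfr624, reached 16.9 and 19.3 in thymocytes, 12.0 and 13.6 in brain, and 8.80 and 7.32 in skin.

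These 3 were the sites of highest mean fold in thymocytes (19.9, 19.5 and 18.1) and ranked 15, 17 and 7 of 36 in brain. Their BURs were not strong in vitro, with folds of 4.94, 5.76 and 3.51, below or near the window's median of 5.67. Over the whole map, BURs bound in all 6 libraries had a median in vitro fold of 10.2, and those of the window 4.94. Because fold enrichment is relative to each library's own background, these values give an order within a library and no test between tissues.

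The strongest brain site was at chr7:110762980-110763634, 2.12 kb from Olfr620, an olfactory receptor gene just outside the flank past Hbb-b2. It reached 24.3 and 24.2 in brain and 19.2 and 16.7 in thymocytes, with no peak in skin. The other brain sites of highest mean fold were the site 18.7 kb upstream of Hbb-y (17.9), a site at the end of Olfr630 (chr7:110902083-110902841, 17.3), the site upstream of Hbb-bh1 (16.7) and a site 2.33 kb from Olfr64 (chr7:111045313-111045908, 14.1). The site at Olfr630 overlaps an exon of that gene and reached 15.9 and 18.7 in brain and 14.1 and 13.9 in thymocytes. The site near Olfr64 reached 13.5 and 14.7 in brain and 8.86 and 7.54 in thymocytes. Skin had no peak at either. In thymocytes the 5 sites of highest mean fold were the 3 sites in all 6 libraries, the site near Olfr620 (17.9) and the site 18.7 kb upstream of Hbb-y (14.1).

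**Figure D4:**
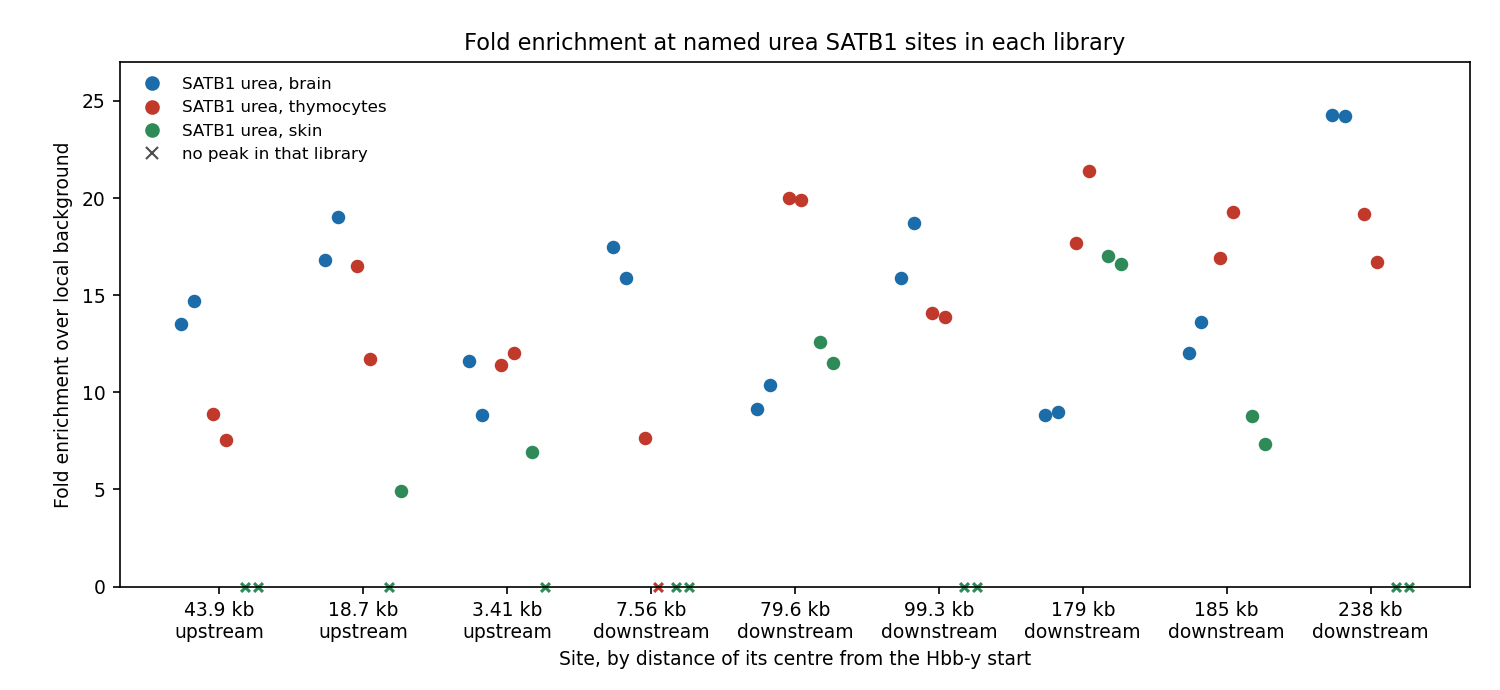
Fold enrichment over local background in each of the 6 urea SATB1 libraries (points; crosses at 0 mark libraries with no peak) at 9 named sites, ordered by distance from the Hbb-y start. At 79.6, 179 and 185 kb downstream the thymocyte points lie above the brain points, and at 7.56 kb downstream, upstream of Hbb-bh1, both brain points (17.5 and 15.9) lie above the thymocyte point (7.65).

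In vitro strength ordered binding weakly in the window. The BUR of highest in vitro fold (14.5, chr7:110895078-110895594, 5.23 kb from Olfr629) had a peak in brain replicate 1 alone, at 6.64. The BUR upstream of Hbb-y came second, and the third (11.8, chr7:110888405-110888897, overlapping Olfr629) was bound in brain (9.50 and 8.65) and in thymocyte replicate 1 (6.86). The median in vitro fold was 6.47 for BURs bound in both brain libraries, 5.51 for both thymocyte libraries and 5.35 for BURs free in all 6 libraries. Over the whole map these medians were 7.21, 8.61 and 5.34. Across bound BURs of the window, Spearman's rho between in vitro and in vivo fold was 0.265 in brain (33 BURs) and 0.336 in thymocytes (14 BURs), while between replicates it was 0.840 and 0.908. These coefficients are across sites that share libraries and are given as descriptions.

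Most peaks of the window lay on BURs. Of the urea SATB1 peaks, 85.4% and 87.8% in brain, 90.9% and 83.3% in thymocytes, and all 4 in each skin library overlapped a BUR. Over the whole lists these shares were 73.0% and 72.8%, 75.8% and 77.6%, and 78.4% and 79.4%. Of the 45 sites, 34 (75.6%) were intergenic, against 63.4% of the 139604 urea SATB1 sites of the genome, and 74.1% of the bases of the window lie outside annotated genes. The other 11 sites overlapped an annotated gene, and all of these were outside the gene span.

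The comparison of urea with standard ChIP-seq was made in thymocytes. Urea libraries had 22 and 18 SATB1 peaks in the window and standard libraries 6 and 1, a difference of 16.5 between the means (exact permutation test, two-sided, p = 0.333, the smallest possible). The groups did not overlap. Standard replicate 1 had 1.25 peaks in the window per 10000 of its list and replicate 2 had 0.368, against 4.88 and 4.63 in the urea libraries. Among the tiles, 55.7% had fewer peaks than the window in standard replicate 1 and 28.7% in replicate 2, where 97.7% and 97.0% did in the urea libraries. The 2 standard replicates differ in antibody and sonication, and only replicate 2 shares its antibody with the urea libraries.

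The 6 standard SATB1 sites lay in the flanks. The single site in both replicates was at chr7:110910714-110912141, 3.65 kb from Olfr69, with folds of 8.27 and 6.25. It held no BUR and was 6.30 kb from the nearest urea SATB1 peak. Only 13.7% of its 50-base words are unique in the genome. The other 5 were in replicate 1 alone, with folds of 4.14 to 6.51, and 3 of these overlapped a CTCF peak. The study reports such overlaps across the genome. The share over all standard peaks is not given here, so the count describes these sites only. The remaining 2 of these 5 sites were 1.18 kb from Olfr67 (4.14) and within an intron of the long transcript 4930516K23Rik, 2.35 kb from Olfr642 (5.62). The standard peak near Olfr642, which starts at 111195407, overlapped a BUR and the urea SATB1 peak of brain replicate 1. The urea peaks of brain replicate 2 and thymocyte replicate 1 ended before it, at 111195401 and 111195300. On BURs of the window, standard peaks fell at 2 of 77 in replicate 1 (2.60%, against 0.686% of all BURs) and none in replicate 2 (against 0.565%).

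CTCF peaks occurred at 4 sites of the window, all outside the gene span. The site nearest to the globin genes was at chr7:110955490-110955737, 5.30 kb past the 3′ end of Hbb-b2, with folds of 8.67 in thymocytes and 4.02 in skin, and a standard SATB1 peak of 6.51 in replicate 1 covered it. It touched the edge of a BUR (chr7:110955716-110956154, in vitro fold 10.5) over 22 bp. That BUR carried urea SATB1 peaks of 9.78 and 10.6 in brain and none in thymocytes or skin, and the brain summit lay outside the CTCF site. The other site in both tissues was at chr7:111091236-111091698, 3.38 kb from Olfr633, with folds of 7.39 in thymocytes and 7.10 in skin and a standard peak of 4.73. One further site was in thymocytes alone (chr7:110860569-110860799, 5.46, with a standard peak of 5.33), and another in skin alone (chr7:111061624-111061909, 3.48). It is centred 60.0 kb upstream of the Hbb-y start and was the nearest CTCF site on that side.

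A search of both strands for the core of the CTCF motif found a match in 1 of the 4 CTCF sites, that past Hbb-b2, and in 1 standard SATB1 site that has no CTCF peak, that near Olfr67.
Past Hbb-b2, minus strand, chr7:110955586-110955599: CCTCAAGGGGGCAG
Near Olfr67, plus strand, chr7:110941608-110941621: CCAGTAGGGGGCAG
All bases are in capitals because all belong to the motif core. The core was present in 33.1% of thymocyte CTCF peaks, 24.4% of skin CTCF peaks, 7.55% and 4.76% of standard SATB1 peaks, 0.166% of BURs and 0.197% of all genome tiles of 250 bases. These shares are not scaled for length. Median lengths were 275 and 393 bp for thymocyte and skin CTCF peaks, 313 and 287 bp for standard peaks and 439 bp for BURs. The match past Hbb-b2 lay between the skin summit at 110955578 and the thymocyte summit at 110955606.

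The beta-globin genes were then set beside other genes of the erythroid programme by asking which genes had a feature in the gene or within 10 kb of it. A peak in both libraries here means peaks of the 2 libraries that overlap each other. All 4 beta-globin genes had a BUR in this range, against 75.2% of all protein-coding genes. Hbb-y, Hbb-bh1 and Hbb-b2 had a urea SATB1 peak in both brain libraries (background 47.1%), Hbb-y alone in both thymocyte libraries (30.8%), and none in both skin libraries (13.9%). None had a standard SATB1 peak in both replicates (56.3%), and Hbb-b2 alone had a thymocyte CTCF peak (51.3%). With 4 neighbouring genes that share peaks, these counts are descriptions.

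The alpha-globin genes Hba-x, Hba-a1 and Hba-a2 on chromosome 11 encode the partner chains. All 3 had a BUR (background 75.2%) and a thymocyte CTCF peak (51.3%) within 10 kb. None had a urea SATB1 peak in any of the 6 libraries. The background for a peak in both libraries was 47.1% in brain, 30.8% in thymocytes and 13.9% in skin. Standard SATB1 peaks that overlap between the replicates were near Hba-x alone (56.3%). The 3 genes are neighbours whose 10 kb ranges overlap, so these counts are descriptions. Hba-a1 had 1 standard peak in each replicate at separate places, and Hba-a2 had 2 in replicate 1 and 0 in replicate 2. Hba-a1 and Hba-a2 are also close copies of each other.

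Genes listed as globin regulators were Gata1, Gata2, Klf1, Tal1, Ldb1, Lmo2, Nfe2, Zfpm1, Bcl11a, Zbtb7a, Myb, Sox6, Hbs1l, Lmo4, Runx1 and Gfi1b. Of these 16 genes, 13 had a BUR (81.2%, against 75.2% of all protein-coding genes). A urea SATB1 peak in both brain libraries was near 7, in both thymocyte libraries near 5 and in both skin libraries near 1. The regulator in skin was Sox6, a repressor of embryonic globin genes that spans 567 kb and had 54 BURs. Bcl11a, the repressor of fetal-type globin genes, had 3 BURs and 2 peaks in each brain and thymocyte library. Klf1, the activator of adult beta-globin, had 2 BURs, no urea SATB1 peak and 4 standard peaks in each replicate, and Gata1, the erythroid GATA factor, had 1 BUR and no urea SATB1 peak. Standard SATB1 peaks in both replicates and thymocyte CTCF peaks were near 12 and 13 of the 16. The brain, thymocyte and skin shares for urea SATB1 peaks (43.8%, 31.2% and 6.25%) were close to or below the background (47.1%, 30.8% and 13.9%).

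Of 12 other erythroid genes listed, 11 were found by symbol (all but Ahsp). Of these, 10 had a BUR (90.9%, against 75.2% of all protein-coding genes), 6 a urea SATB1 peak in both brain libraries (54.5% against 47.1%), 5 in both thymocyte libraries (45.5% against 30.8%) and 3 in both skin libraries (27.3% against 13.9%). The 3 in skin were Ank1, encoding ankyrin of the red cell membrane, and Alas2 and Fech, the first and last enzymes of haem synthesis. Epor, the erythropoietin receptor, had no BUR and no urea SATB1 peak. Standard SATB1 peaks in both replicates were near 6 of the 11 (54.5% against 56.3%) and thymocyte CTCF peaks near 7 (63.6% against 51.3%). The median gene length in the list was 23.9 kb, against 15.4 kb over all protein-coding genes and 1.51 kb for the beta-globin genes, and longer genes offer more room for a peak.

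Olfactory receptor genes surround the cluster and are shorter still, with a median of 0.966 kb in the window. All 29 in the window had a BUR within 10 kb, 27 (93.1%) a urea SATB1 peak in both brain libraries, 17 (58.6%) in both thymocyte libraries and 5 (17.2%) in both skin libraries. Over all 1251 olfactory receptor genes these shares were 95.7%, 76.0%, 41.8% and 11.4%. Standard SATB1 peaks in both replicates were near 2 of the 29 genes (6.90%) and 2.88% of all olfactory receptor genes, and thymocyte CTCF peaks near 3 (10.3%) and 4.32%. Both are far under the shares of all protein-coding genes given above. Neighbouring genes share peaks, so these genes are not independent and no test was made.

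**Figure D5:**
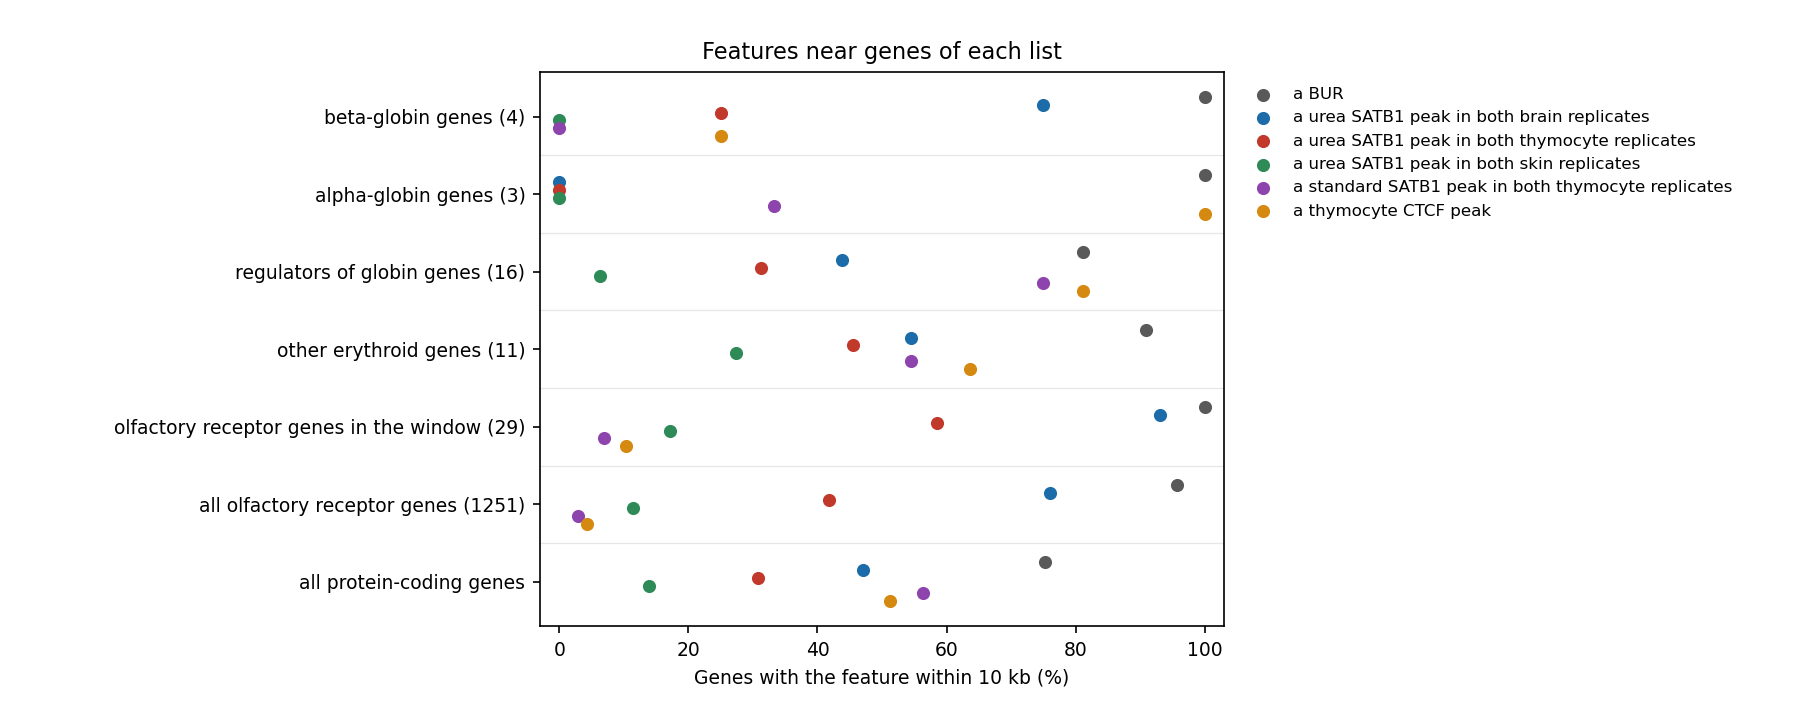
Percent of the genes of each list (number of genes in brackets) with a feature in the gene or within 10 kb, with all protein-coding genes in the bottom row. Olfactory receptor genes lie at 95.7% for BURs and 2.88% for standard SATB1 peaks, against 75.2% and 56.3% of all protein-coding genes.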

How the data were processed

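SATB1 and CTCF ChIP-seq peak lists of mouse brain, thymocytes and skin were used, with groups taken from the sample labels. The authors aligned 50-base reads to NCBI37/mm9 with Bowtie2 2.3.1, allowing 3 mismatches in the seed and keeping unique matches, and ran MACS2 2.2.7 (q-value limit 0.01) on every sample by itself; use of an input is not given in the sources used here. The deposited lists give each peak's position, fold enrichment (a ratio over local background), −log10 p-value, −log10 q-value, summit and a display score; the deposited score was not used. The lists hold no read counts, so counting error could not be computed; the study describes its urea libraries as alike in aligned reads across tissues, which was not checked.

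From these files, overlaps of at least 1 bp, distances and shares were computed with Python 3.11.15 (numpy 2.4.6, pandas 2.3.3, scipy 1.17.1), after a test on simulated intervals. Peaks of several lists sharing at least 1 bp were merged into sites. Sequence and 50-base words came from NCBIM37, genes from GENCODE vM1. Libraries were compared by exact permutation tests. Alternatives were stricter q-values, other overlap rules, flanks of 100 and 500 kb, lists of equal size, unique BURs, a replicate block and leaving out each replicate. The members, gene lists and rules were chosen with earlier results of these data known. Named were every site in the gene span, the 5 sites of highest mean fold in both replicates of each tissue, sites in all 6 urea lists, all CTCF and standard sites, and the 3 BURs of highest in vitro fold; the peaks nearest to each member were added, and those between Hbb-y and Olfr66 were chosen after their values were seen.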

Additional observations from a re-analysis of the deposited data

How the results depend on the processing

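Cut to 1 size, the urea SATB1 lists turned the brain minus thymocyte difference to -3.25 percentage points and left 3.25 points between thymocytes and skin; the cause was not tested. Under the other alternatives and without each replicate in turn, the differences between tissues and between urea and standard kept their direction. For 2 of these alternatives that outcome was fixed in advance. Requiring at least 80% unique words kept all 77 BURs of the window, so it was no check on repeats. The replicate block changes only p-values. The mean ratio of the window to the whole map stayed above 1 in each tissue. In brain it was 1.31 with 50% of the SATB1 peak required in the BUR, 1.31 with flanks of 100 kb, 1.13 with flanks of 500 kb and 1.14 with lists of equal size. With equal lists the brain libraries split: replicate 1 bound 3.90% of window BURs against 4.57% of all, and replicate 2 bound 6.49% against 4.54%. In thymocytes the mean ratio was 1.45 with flanks of 500 kb and 2.00 with lists of equal size, and in skin 1.25 with flanks of 100 kb. The urea minus standard difference was 9.50 peaks with flanks of 100 kb and 25.5 with 500 kb. A permutation within replicate numbers (replicate block) left the differences at 21.4, 17.5 and 39.0 points and 16.5 peaks and gave exact p = 0.500 for each pair of groups and 0.167 for the 3 tissues, the smallest it allows; the numbers name no shared animal. Without 1 replicate, the brain minus thymocyte difference ranged from 18.2 to 24.7 points, thymocyte minus skin from 14.3 to 20.8, the spread of the 3 tissues from 37.7 to 40.3, and urea minus standard from 14.0 to 19.0 peaks. Read counts that the lists do not hold, repeats in Hbb-b1 and Hbb-b2, and 2 libraries a group limit all of these.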
